A study of Mus musculus with 6 samples.

Results

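FIP5, the product of Rab11fip5, is named in the title of the study beside occludin, and it belongs to a small set of proteins that act together on recycling endosomes. The 9 genes described here encode the 5 FIPs (Rab11fip1 to Rab11fip5), the 3 small GTPases of the Rab11 group (Rab11a, Rab11b and Rab25) and the motor myosin Vb (Myo5b). They were taken by gene symbol, and all 9 were found among the 16701 genes of the authors' deposited table. That table compares luminal epithelial cells of the mammary gland of Ocln knockout mice (Ocln-/-, 3 libraries) with those of wild-type control mice (3 libraries), all at 7 weeks of age. Polyadenylated RNA was sequenced, and the table gives 1 mean level over the 6 libraries and 1 fold change per gene, so no value of a single library stands behind any number below. How the allele was made, whether it is deleted in all tissues, how the luminal cells were isolated and whether each library is 1 mouse are points that the labels leave unstated. A p-value here therefore measures the spread between these libraries, which may be technical.

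Rab11 GTPases mark the recycling endosome, from which membrane and receptors taken up at the surface return to it, and in polarized epithelia they carry apical proteins towards the lumen. In the GTP-bound state they recruit effectors, among them the FIPs, which hold a Rab11-binding domain near the carboxy terminus. Class I FIPs (FIP1, also called RCP, FIP2 and FIP5) carry a C2 domain that binds membrane lipids, while class II FIPs (FIP3 and FIP4) carry EF hands. Myosin Vb binds Rab11 and moves recycling vesicles along actin. In dividing cells Rab11 endosomes gather around the spindle poles, and FIP3 brings them to the furrow and midbody.

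The stretches below show what the members share and where they differ in sequence, because the fold changes of close relatives can be read apart only where their reads differ. They are spliced coding sequence of the longest coding transcript of each gene (GENCODE M21, build GRCm38), written 5′ to 3′ in the sense of the mRNA. In each set the 60 aligned bases with the most identical columns were taken, and capitals mark every column in which the set is not identical. For the 3 GTPases this stretch crosses 1 intron and 46 of its 60 columns were identical.
Rab11a: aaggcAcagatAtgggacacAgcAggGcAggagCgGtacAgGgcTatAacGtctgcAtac
Rab11b: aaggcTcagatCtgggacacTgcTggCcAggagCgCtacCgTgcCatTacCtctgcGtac
Rab25: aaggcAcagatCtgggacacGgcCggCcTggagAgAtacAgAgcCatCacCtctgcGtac
The stretch spans chr9:64726814-64728289 for Rab11a, chr17:33749057-33749837 for Rab11b and chr3:88543510-88545116 for Rab25, all on the minus strand. Counted from 1 at the 5′ end of the stretch, Rab25 had 12 substitutions against Rab11a, of which A29T and C34A stand at positions where Rab11b has the base of Rab11a. Rab11b also had 12 substitutions against Rab11a.

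For the 5 FIPs the alignment covered the last 150 coding bases, the end that encodes the Rab11-binding domain. In its best stretch 22 of the 60 columns were identical in all 5 genes, and the remaining 38, in capitals, were not.
Rab11fip5: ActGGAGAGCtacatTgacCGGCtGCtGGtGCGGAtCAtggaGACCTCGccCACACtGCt
Rab11fip1: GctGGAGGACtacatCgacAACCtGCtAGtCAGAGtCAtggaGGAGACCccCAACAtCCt
Rab11fip2: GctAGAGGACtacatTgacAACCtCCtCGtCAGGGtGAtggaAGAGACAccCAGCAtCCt
Rab11fip3: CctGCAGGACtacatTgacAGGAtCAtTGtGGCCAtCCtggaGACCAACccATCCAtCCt
Rab11fip4: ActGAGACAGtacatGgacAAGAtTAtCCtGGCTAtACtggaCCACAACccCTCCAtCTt
These stretches lie at chr6:85337051-85337110, chr8:27143219-27143278, chr19:59906968-59907027 and chr17:25990785-25990844 on the minus strand for Rab11fip5, Rab11fip1, Rab11fip2 and Rab11fip3, and at chr11:79692764-79692823 on the plus strand for Rab11fip4. Over the aligned end, Rab11fip3 and Rab11fip4 were 74.8 percent identical and Rab11fip1 and Rab11fip2 were 68.8 percent identical. Rab11fip5 was 54.1 percent identical to Rab11fip1 and 52.4 percent identical to Rab11fip2.

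No run of 50 bases was shared between any 2 of the 9 genes in their longest coding transcripts, and Rab11a and Rab11b, 75 percent identical over 648 aligned coding bases, had no identical run longer than 14 bases. Reads of 50 bases or more could thus be assigned among the members. Other genes do share longer runs with some of them. Of the 6060 runs of 50 bases in Rab11b, 14.0 percent also occur in transcripts of other genes, 555 of them in the pseudogene Rab11b-ps2. Rab11b-ps2 is itself listed at a mean level of 1049 normalized counts in the authors' deposited table (log2 fold change 0.02 ± 0.15 SE), so the split of reads between Rab11b and this copy is uncertain. In Rab11fip3, 7.87 percent of the runs occur in 1700022N22Rik, and in Rab11fip1 5.57 percent occur in other genes, mainly 4933416M07Rik. The authors' deposited table lists these partners at only 19.1 and 33.5 normalized counts. Rab11fip5 shared 0.544 percent of its runs, all with Mir705, and Rab11a 2.54 percent, all with Gm47308, and neither partner is listed. In Rab11fip2, Rab11fip4, Rab25 and Myo5b 0 runs were shared.

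None of the 9 genes passed the test in cells of Ocln knockout mice. By DESeq2 in the authors' deposited table, of the 9 genes 0 had an adjusted p under 0.05, beside 1.08 percent of all genes (181 of 16701; 0.808 percent were higher and 0.275 percent lower). The authors' own calls, which the same table gives to 2.79 percent of all genes, fell on 0 of the 9. These calls did not follow the adjusted p. Plk1 (log2 fold change -1.07, DESeq2 adjusted p = 0.449) was called, and Egfr (0.93, adjusted p = 0.00168) was not. The largest of the 9 values was 0.54, below that of Egfr, so these calls add no separate test of the members. At an unadjusted p under 0.05 the count was 1 of 9, Rab11fip5, beside 9.07 percent of all genes, of which 5.23 percent were higher and 3.83 percent lower. Of the 9 log2 fold changes 8 were positive, against 48.8 percent of all genes, and their median was 0.10, beside -0.01 over all genes. Scores over the whole table moved with transcript length (below). With that trend removed Rab11fip4 turned to -0.025, and the middle value of the 9, that of Myo5b, went from 0.10 to 0.043. The targeted gene Ocln fell to 44.9 percent of the control level in the authors' deposited table (95 percent interval 35.9 to 56.2, DESeq2 adjusted p = 4.36e-09). Ocln RNA was thus reduced and not absent in the libraries labelled Ocln knockout, and the table does not show whether the remaining RNA encodes occludin. Ocln lies on chromosome 13 and 0 of the 9 genes do.

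**Figure D1:**
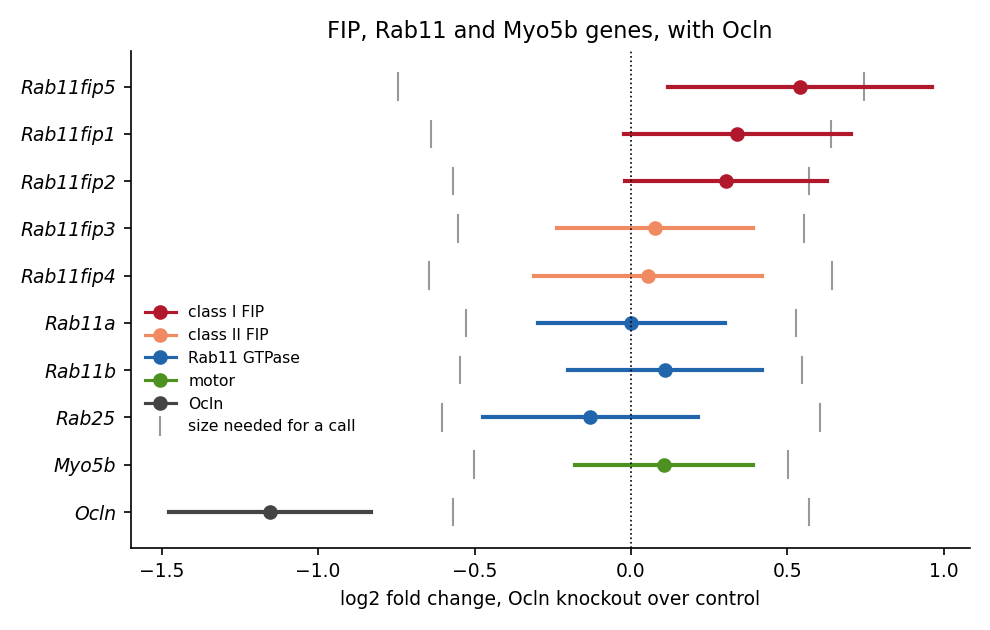
Log2 fold change of each gene in Ocln knockout over control cells (points) with its 95 percent interval (bars), in colours by role, and Ocln below. Grey ticks mark the size at which each gene would have been called, given its SE. Every member's interval stays within 1 log2 unit of 0, and only that of Rab11fip5 leaves out 0.

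The class I FIPs had the 3 highest fold changes of the set. Rab11fip5 (ENSMUSG00000051343.11, minus strand of chromosome 6, 85334962 to 85374634 on GRCm38) encodes the FIP that in cultured kidney epithelium carries endosomes to the forming apical lumen. Its mean level in the authors' deposited table was 1956 normalized counts, above that of 84.0 percent of the listed genes. If both groups of 3 weigh equally, this mean and the fold change amount to 2317 normalized counts in Ocln knockout cells and 1594 in control cells. The log2 fold change was 0.54 ± 0.22 (SE) in the authors' deposited table (DESeq2 adjusted p = 0.317, unadjusted p = 0.012). Expressed as a level, knockout cells held 145.4 percent of that of control cells, and the 95 percent interval of this single gene ran between 108.6 and 194.7 percent. By its p-value the gene ranked 634th of 16701, so 3.79 percent of all genes had a smaller one.

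Rab11fip5 was also the least precisely measured of the 9. Its SE of 0.22 in the authors' deposited table compares with a median of 0.17 among the 500 genes nearest to it in mean level, and 86.0 percent of those had a smaller SE. The smallest Wald score, the log2 fold change over its SE, that was called in the whole table was 3.46. With its SE, Rab11fip5 would have needed a log2 fold change of 0.74, or 1.67-fold, to be called. Its interval lies above the control level and reaches to nearly double that level. It is not adjusted for the number of genes, and with an adjusted p of 0.317 by DESeq2 the direction is not settled. The table does not separate the 2 annotated coding transcripts of the gene.

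Rab11fip1 encodes FIP1, known for returning integrins and growth factor receptors to the surface, and lies on chromosome 8, minus strand, between 27138773 and 27174646. It held the highest mean level of the set in the authors' deposited table, 6576 normalized counts. That mean amounts to 7349 normalized counts in Ocln knockout cells and 5804 in control cells under the same assumption. Its log2 fold change was 0.34 ± 0.19 (SE) in the authors' deposited table (DESeq2 adjusted p = 0.602, unadjusted p = 0.0658), or 126.6 percent of the control level with an interval of 98.5 to 162.9 percent.

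Rab11fip2 encodes FIP2, which links Rab11 to myosin Vb, and lies on chromosome 19, minus strand, between 59902884 and 59943654. At 615 normalized counts it was the lowest of the set by mean level in the authors' deposited table. Its log2 fold change in the authors' deposited table was close to that of Rab11fip1, at 0.30 ± 0.16 (SE, DESeq2 adjusted p = 0.601, unadjusted p = 0.0648). This puts knockout cells at 123.4 percent of the level in control cells, within an interval of 98.7 to 154.4 percent. The 3 class I genes lie on 3 different chromosomes, and all 3 intervals reach past a 50 percent increase. Their median log2 fold change was 0.34.

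The class II FIPs stood nearer to no difference. Rab11fip3 encodes the FIP that binds dynein light intermediate chains and serves cytokinesis, and lies on chromosome 17, minus strand, between 25989036 and 26069555. At 668 normalized counts on average, it stood at a log2 fold change of 0.08 ± 0.16 (SE) in the authors' deposited table (DESeq2 adjusted p = 0.959). Rab11fip4, its closest relative, lies on chromosome 11, plus strand, between 79591212 and 79698023. It had 1946 normalized counts on average and 0.05 ± 0.19 as its log2 fold change in the authors' deposited table (DESeq2 unadjusted p = 0.771). The intervals run from 84.9 to 131.0 percent of the control level for Rab11fip3 and from 80.6 to 133.7 percent for Rab11fip4. Both overlap those of the class I genes. Whether the classes differ was not tested, because the table holds no values per library from which the difference of 2 genes could get an error.

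The 3 GTPases were spread around 0. Rab11a, the widely expressed member that marks the recycling endosome, had a log2 fold change of 0.00 ± 0.15 (SE) in the authors' deposited table (DESeq2 adjusted p = 0.999) at 2165 normalized counts. Its interval, 81.3 to 123.1 percent of the control level, leaves out larger changes in either direction. Rab11b, its close paralogue, had 0.11 ± 0.16 (DESeq2 adjusted p = 0.936) at 2257 normalized counts in the authors' deposited table, with the limit on shared reads given above. Rab25, the member restricted largely to epithelia, was the only one of the 9 with a negative value, -0.13 ± 0.17 (DESeq2 adjusted p = 0.928) in the authors' deposited table. Its mean level of 2656 normalized counts amounts to 2538 in Ocln knockout cells and 2775 in control cells, and its interval runs from 72.1 to 115.9 percent. The genes lie on chromosome 9 (Rab11a, 64715299 to 64737758), chromosome 17 (Rab11b, 33742484 to 33760530) and chromosome 3 (Rab25, 88542029 to 88548300), all on the minus strand.

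Myo5b, the motor gene on the plus strand of chromosome 18 (74440936 to 74771493), stood at 0.10 ± 0.15 on the log2 scale (SE, DESeq2 adjusted p = 0.931), with 1204 normalized counts, in the authors' deposited table. It was the most precisely measured member, with 1.8 percent of the 500 genes nearest in mean level at a smaller SE. Its interval is 88.3 to 131.0 percent of the control level. A change of 1.42-fold would have been called.

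**Figure D2:**
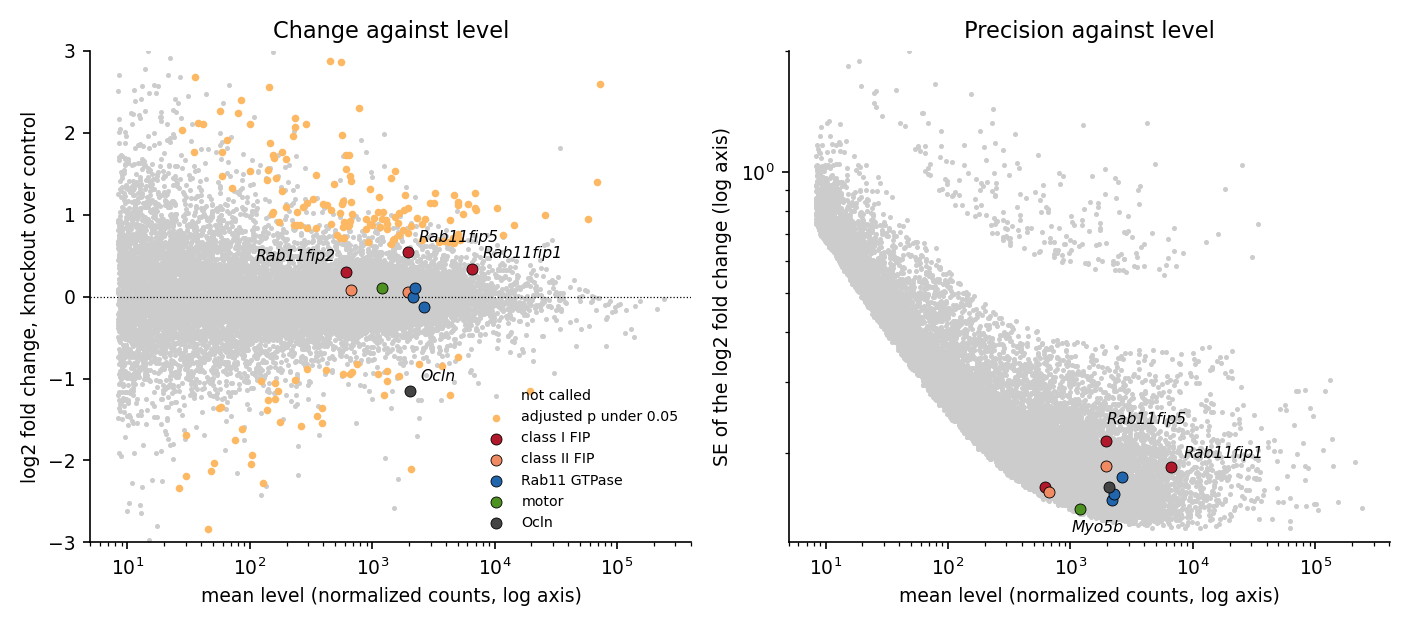
Left, log2 fold change of Ocln knockout over control cells against mean level in normalized counts, and right, the SE of the fold change against mean level, for all listed genes (grey), called genes (yellow) and the 9 members and Ocln (coloured by role). At log2 fold changes beyond 3 in size 17 genes, and at an SE above 2, 6 genes lie outside the axes. The members stand among the uncalled genes, with Rab11fip5 (SE 0.22) highest of the 9 in the right panel.

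Taken per length, Rab25, Rab11a and Rab11fip1 had the highest mean levels of the set. A longer transcript yields more reads, so mean levels were divided by the bases of all annotated exons of each gene. Rab25 led with 1588 normalized counts per kb, followed by Rab11a with 723 and Rab11fip1 with 609. Rab11b, with the limit on shared reads given above, had 368, Rab11fip5 319 and Rab11fip4 261 normalized counts per kb. The lowest were Myo5b with 123, Rab11fip2 with 101 and Rab11fip3 with 96.3 normalized counts per kb. Divided by the longest coding transcript instead, Rab25 stood at 2457, Rab11a at 927 and Rab11fip1 at 826 normalized counts per kb, and the order stayed the same except that Rab11fip3 (124) passed Rab11fip2 (115). The levels have no spread over libraries in the table, so which neighbours in this order differ beyond it cannot be said.

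**Figure D3:**
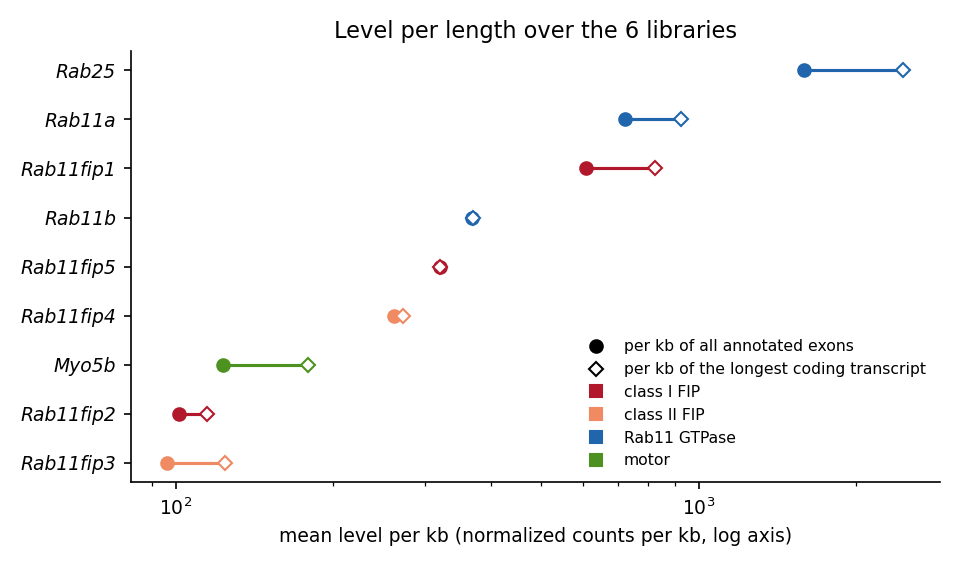
Mean level of each gene over the 6 libraries per kb, on a log axis, with all annotated exons (filled) or the longest coding transcript (open) as the length. Colours give the role of each gene. Rab25 is highest and Rab11fip2 and Rab11fip3 are lowest with either length.

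The scores of the whole table moved with transcript length, and the FIP transcripts are long. Over 20 bins of genes of equal size, the median Wald score was -0.29 in the shortest bin and 0.46 in the longest. It was 0.32 in the bin that holds Rab11fip5 (longest coding transcript 6119 bases), 0.46 in that of Rab11fip1 (7965 bases) and -0.31 in that of Rab25 (1081 bases). With the bin median taken off, the Wald score of Rab11fip5 was 2.20 in place of 2.51, that of Rab11fip1 1.38 in place of 1.84 and that of Rab11fip2 1.58 in place of 1.85. Rab25 stood at -0.43 in place of -0.74. The adjusted p of Rab11fip5 was then 0.468. The part of length in these values was not tested further.

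On chromosome 6 the listed genes beside Rab11fip5 did not pass the test in the authors' deposited table. Sfxn5, 1.54 kb away, stood at 0.23 ± 0.20 on the log2 scale (SE; DESeq2 adjusted p = 0.843), and Spr, beyond it, -0.06 ± 0.17 in the authors' deposited table. On the other side Smyd5 stood at 0.24 ± 0.23 and Pradc1 at 0.09 ± 0.24 in the authors' deposited table. All 4 values were below the 0.54 of Rab11fip5, and those differences were not tested.

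Around the members, 87 of 89 genes of 7 lists on the Rab11 pathway and its neighbours are in the table. Of these, 2 rose, Egfr and Pigr, and 0 fell, a share of 2.30 percent beside 1.08 percent of all genes. By the authors' own calls in the deposited table the split was 1 higher, Pigr, and 5 lower, all 5 of them genes of dividing cells. At an unadjusted p under 0.05 by DESeq2, 5 were higher and 9 lower, together 16.1 percent of the list. Without the 12 genes of dividing cells the share was 9.33 percent, beside 9.07 percent of all genes.

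Both genes that rose come from the list of 10 cargo receptors that travel through recycling endosomes, so this shared trait was set by the list. Egfr, the epidermal growth factor receptor, rose by 0.93 ± 0.21 on the log2 scale (SE; DESeq2 adjusted p = 0.00168) in the authors' deposited table, or 190.9 percent of the control level at a mean of 1288 normalized counts. Pigr, the polymeric immunoglobulin receptor that carries antibodies across epithelia into milk and other secretions, had 1.49 ± 0.34 (DESeq2 adjusted p = 0.00265) in the authors' deposited table, or 280.1 percent, at a mean of 348. Both also passed once the scores had been scaled down by their inflation, and once the length trend was removed. By the authors' own calls Pigr was called and Egfr was not, and the same held when the log2 fold change had to reach 1 in size. Met, the hepatocyte growth factor receptor, did not pass, with 0.71 ± 0.24 in the authors' deposited table (adjusted p = 0.157). Of the 10 cargo receptors 5 were positive and 5 negative, around a median log2 fold change of 0.00.

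None of the other lists held a called gene, by DESeq2 in the authors' deposited table. Among 16 regulators, motors and effectors of Rab11, 1 was lower at an unadjusted p under 0.05, beside 3.83 percent of all genes. This was Sh3bp5, which encodes a nucleotide exchange factor that activates Rab11 (-0.37 ± 0.18 SE, DESeq2 unadjusted p = 0.0367 in the authors' deposited table). Positive values numbered 5 in this list and negative ones 11, and their median was -0.08. Next in size of score were the Golgi lipid kinase gene Pi4kb (-0.28 ± 0.18) and Evi5, a Rab11-binding protein gene (-0.33 ± 0.22), in the authors' deposited table.

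Tubulation of the recycling endosome and sorting from it were covered by 18 genes. Among them Ehd1, an ATPase gene needed for exit from the recycling endosome, was highest at 0.50 ± 0.20 (SE, adjusted p = 0.317) in the authors' deposited table. Its score of 2.51 matched that of Rab11fip5 to 2 decimals. Pacsin2, a membrane-bending protein gene, stood at -0.36 ± 0.19 and Snx18 at 0.31 ± 0.21 in the authors' deposited table. Over the 18 genes the median was 0.00. SNX18 is a sorting nexin that binds FIP5 in lumen formation. Among 15 listed partners of FIP5 and of apical delivery, Sytl2, a Rab27 effector gene, had the largest score, at -0.94 ± 0.33 (unadjusted p = 0.00382, adjusted p = 0.173) in the authors' deposited table. Tjp1, the gene of the junction scaffold ZO-1, stood at 0.35 ± 0.14 (adjusted p = 0.329) and the apical syntaxin gene Stx3 at 0.33 ± 0.18 in the authors' deposited table. This list had a median of -0.06.

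The motor that FIP3 engages showed small values. All 6 dynein and dynactin genes had positive values, with 0.09 as the median log2 fold change, and 0 had an unadjusted p under 0.05 by DESeq2 in the authors' deposited table. The light intermediate chain genes Dync1li1 (0.10 ± 0.15 SE) and Dync1li2 (0.12 ± 0.14) and the intermediate chain gene Dync1i2 (0.11 ± 0.14) had its largest scores in the authors' deposited table. Rabs of early and late endosomes, with their effectors, had a median of -0.02 over 11 genes and 0 at an unadjusted p under 0.05. Lists this short cannot set a count of 0 apart from the 9.07 percent of all genes. Rab4a, which acts in fast recycling, stood at 0.23 ± 0.17 in the authors' deposited table. Rab5c and Rab5b, of the early endosome, stood at -0.20 ± 0.15 and -0.20 ± 0.19 in the authors' deposited table.

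**Figure D4:**
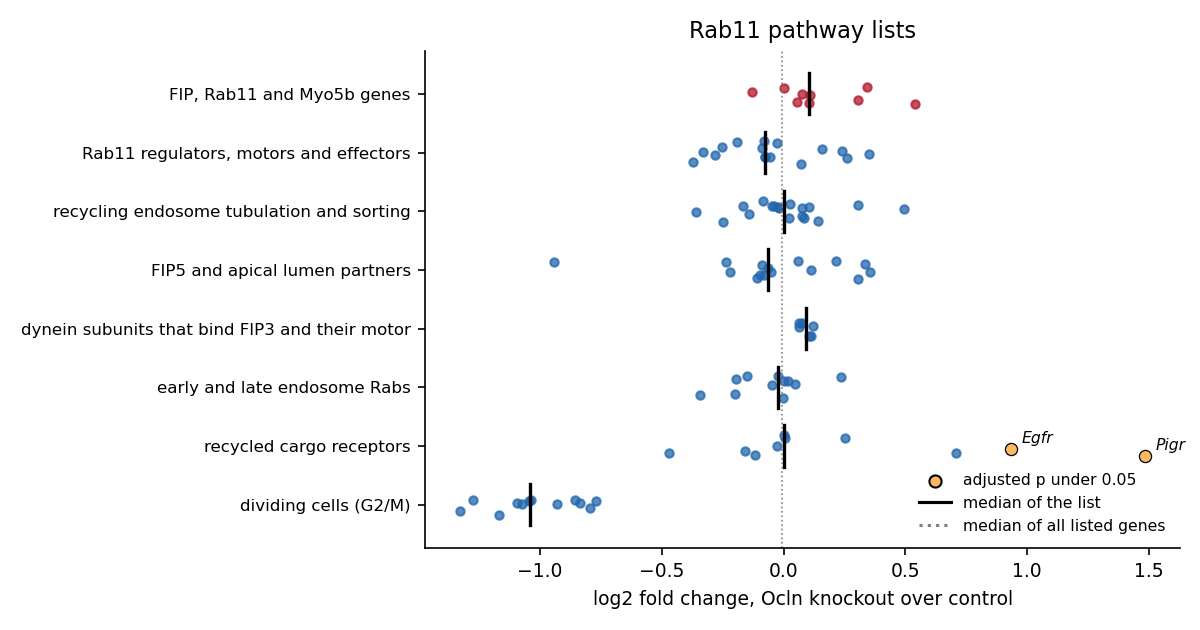
Log2 fold change of Ocln knockout over control cells for each gene of the FIP, Rab11 and Myo5b set and of 7 lists of neighbouring functions, 1 point a gene, with the list medians (black bars) and the median of all genes (dotted line). Yellow points are called genes. Egfr and Pigr are the 2 called genes, and the genes of dividing cells stand apart to the left with a median of -1.04.

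Genes of dividing cells, in which Rab11 endosomes and FIP3 act at spindle poles and furrow, had 12 of 12 negative values with a median of -1.04. Over all genes 48.8 percent of the values were positive. Of the 12, by DESeq2 in the authors' deposited table, 0 passed, beside 1.08 percent of all genes. At an unadjusted p under 0.05, 7 were lower, beside 3.83 percent of all genes. The list was chosen with earlier results of these data known, and whether its genes vary independently was not tested. The largest scores in the authors' deposited table were those of Cenpf (-1.27 ± 0.39 SE, adjusted p = 0.0735), Ccnb2 (-1.33 ± 0.45) and Plk1 (-1.07 ± 0.48). The median SE of this list was 0.49, beside 0.16 for the 9 members. A bulk level cannot tell fewer cells of a type apart from less RNA per cell, and the part of dividing cells in the members' values was not tested.

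The labelled cell type matched its markers, with all 12 luminal markers listed at 3504 to 84084 normalized counts, led by Krt18 and Krt8. Markers of other cells were lower. The 8 myoepithelial and basal markers reached at most 665 normalized counts, the 6 fibroblast markers 387 and the 5 endothelial and pericyte markers 877. Of the myoepithelial list 2 values were positive and 6 negative (median -0.17), and 1 gene fell, Oxtr (-1.55 ± 0.38 SE), while Krt17 stood at 0.86 ± 0.42 in the authors' deposited table. The fibroblast list held 5 positive values of 6 (list median 0.22), and the 1 negative gene, Dcn, fell (-1.36 ± 0.35 SE in the authors' deposited table). Among the 5 adipocyte markers 1 is listed, Fabp4, and of the 7 lymphocyte markers 2, at 37.6 and 195 normalized counts. The 8 macrophage and myeloid markers all had positive values (median 1.02), summed to 1522 normalized counts and included 1 that rose, S100a8 (2.12 ± 0.53 in the authors' deposited table). Its mean level was only 37.5 normalized counts. Lyz2 (0.97 ± 0.29 SE, DESeq2 adjusted p = 0.0665) and S100a9 (1.89 ± 0.57, adjusted p = 0.0713) did not pass. Once the length trend was removed both passed, and the authors' own calls included S100a9 but not Lyz2. The part of these other cell types in the members' values was not tested.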

How the data were processed

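Poly(A) RNA-seq was made from luminal cells of 3 Ocln knockout and 3 control libraries, grouped by the titles in the labels. The deposited table was made with DESeq2 on mm10, per the submitters' processing notes. For the aligner, counter, annotation and formula, nothing is stated in the labels. Per the file headers, the authors' columns are a mean level (a signal in normalized counts), a log2 fold change with its SE, the Wald score, and a p-value, raw and adjusted. The authors' calls stand in a final column of another kind. The direction, knockout over control, comes from the table's name. The score equalled fold change over SE to within 2.58e-07, and deposited adjusted p-values differed from a Benjamini-Hochberg adjustment over the 16701 genes by at most 0.512 percent.

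No count model was run and the depth of each library is unknown, since the table holds no values per library. Precision is that of the SE, and 95 percent intervals are 1.96 SE on either side, not adjusted for the number of genes. A call is an adjusted p under 0.05. Other settings were an adjusted p under 0.01, a log2 fold change of at least 1, a mean level of at least 50, the calls of the authors, scores scaled down by the root of their inflation factor (1.18), scores less their median in 20 bins of transcript length and, chosen after seeing the data, an unadjusted p under 0.05. Adjustment, inflation and length steps were tested on simulated data. GENCODE M21 (GRCm38) gave positions and lengths for 16250 genes. Coding sequences were aligned with MAFFT 7.526, and runs of 50 bases were searched on both strands of all GENCODE transcripts. Python 3.11.15, scipy 1.17.1 and pandas 2.3.3 were used.

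The members and the lists were chosen with earlier results of these data known. Named beside the members and Ocln were, per pathway list, the called genes or else the 3 largest scores, per marker list the called genes or else the 2 highest levels, and the 2 listed genes on each side of Rab11fip5. Met, Krt17, Lyz2 and S100a9 were added after their values were seen. With 1 fold change per gene, genes of like pattern could not be sought.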

Additional observations from a re-analysis of the deposited data

How the results depend on the processing

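The count of called genes over the whole table was 107 at an adjusted p under 0.01, 117 when the log2 fold change also had to reach 1 in size, 119 after division of the scores by their inflation, 466 by the authors' own calls and 1514 at an unadjusted p under 0.05, in place of 181. Among the 9 members 0 were called under each of these settings except an unadjusted p under 0.05, where Rab11fip5 was the 1 called, with its log2 fold change of 0.54. The stricter p, the size limit and the division by inflation can only take calls away, so 0 members was fixed in advance there. As said above, the authors' calls add no separate test of the members either. Among the pathway lists, in place of 2 genes, 1 was called when that size was required (Pigr), 6 by the authors' own calls and 14 at an unadjusted p under 0.05. Of the 6, 5 were genes of dividing cells. With the length trend removed, Rab11fip4 turned to -0.025, the cause being the bin median taken off, and Cenpf was called as well. The members' median log2 fold change was 0.11 when centred on all genes and their mean was 0.16. With the length trend removed the positive shift was smaller. The middle value of the 9, that of Myo5b in both settings, was then 0.043 in place of 0.10, and Rab11fip5 stood at 0.47 in place of 0.54. No paired analysis was possible because the table holds no values per library. For the same reason leaving out a library and another normalization were not run. A filter at a mean level of at least 50 left 178 genes called over the whole table and 0 members. With the SEs of the table, a 1.42-fold to 1.67-fold change was needed for a call across the members; the part of depth in these SEs was not tested.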
